A study of Mus musculus with 18 samples.

Results

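CCR2- cardiac resident macrophages (CRMs) of aged mice were compared directly with CCR2- CRMs of mice on a high-fat diet (HFD). The comparison used 6 of the 18 libraries in the series, 3 in each group, chosen by their labels, and no control library was shared between the groups. Of 55401 genes in the table, 15456 passed the filter on low counts and were tested. CCR2 is the chemokine receptor through which blood monocytes enter tissue, and sorting on it separates longer-lived resident macrophages from cells recruited from blood.

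The aged group came from mice of 20 months, which the study's methods describe as female C57BL/6J on normal chow. For the HFD group the labels give the diet alone, and the age, sex, strain and length of feeding of those mice are not given in the sources used here. Age, diet and any difference in handling therefore cannot be told apart in this contrast. By the methods, CRMs were sorted from digested left ventricles on CD11b, CX3CR1 and CCR2, and each library was made from a pool of sorted cells. The other 12 libraries were CCR2- CRMs of control mice (3 months) and CCR2+ CRMs of all 3 groups.

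Resident heart macrophages carry the folate receptor Folr2, the hyaluronan receptor Lyve1 and scavenger receptors such as Cd163, clear debris and iron-rich material, and renew themselves locally. Macrophages derived from monocytes carry Ccr2, Ly6c2 and Plac8 for a time after entry. Type I interferon switches on antiviral genes of the Oas, Ifit and Gbp families, while interferon gamma raises MHC class II and the immunoproteasome.

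Total counts of the 6 libraries were 51839163 to 55064650, so depth differed little. A count of 0 allows up to 3 counts, or 0.0545 to 0.0579 CPM (counts scaled to the library total) in these libraries, and this limit covers counting error only. Levels below are CPM, and log2 fold changes are aged against HFD from edgeR with TMM scaling unless said otherwise. The labels do not say whether replicates came from separate animals. The study's legends count mice as replicates for marker levels of sorted CRMs of young and aged mice, and give nothing on the HFD libraries. The p-values measure the spread between these samples, which may be technical where animals were not separate.

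Library 3 of the aged group was not like an independent sample. Aged libraries 1 and 2 differed 2-fold or more for 4714 genes, and library 3 lay between them in 99.4% of these. A weighted mean of 44% library 1 and 56% library 2 came within 1.25-fold of library 3 for 97.6% of 6253 genes. Control library 3 had the same relation to control libraries 1 and 2 (97.4% of 5531 genes), while in the other 16 libraries the best weighted mean reached 17.2% to 41.7%. For HFD library 3 the share was 19.9%. Means and standard errors that count aged library 3 as independent are too narrow, and a statement that all aged libraries lay above or below all HFD libraries rests on aged libraries 1 and 2.

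**Figure D1:**
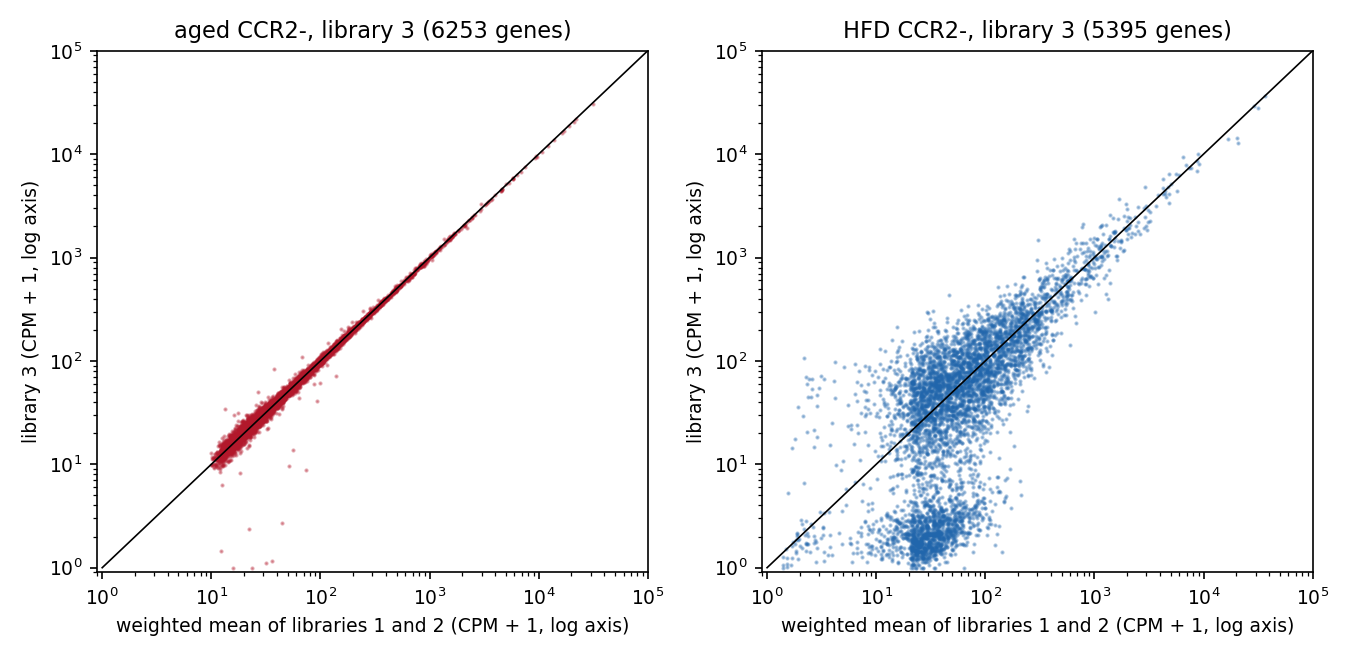
Level of each gene in library 3 (CPM + 1, log axis) against the best weighted mean of libraries 1 and 2 of its group, for aged (left, 6253 genes) and HFD (right, 5395 genes) CCR2- CRMs, each point 1 gene and the line equality. The aged points hug the line, with 97.6% within 1.25-fold of it, against 19.9% of the HFD points, many of which lie near 1 in HFD library 3.

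Genes were also missing from single libraries. Of 4753 genes with an HFD mean of at least 20 CPM, 21.3% stood below 10% of that mean in aged library 1 and 7.26% in aged library 2. Of 5000 genes with an aged mean of at least 20 CPM, 25.96% did so in HFD library 3, against 5.64% and 6.92% in HFD libraries 1 and 2. Xist stood at 2.04 CPM in HFD library 3 and at 60.1 to 131 CPM in the other 5, and the Y-linked Ddx3y was at most 1.42 CPM in all 6. The share of counts from mitochondrial genes was 1.42% to 1.73% in aged and 1.89% to 2.44% in HFD libraries.

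Defining markers of macrophages were high in both groups. The 15-gene macrophage list summed to 52560, 46340 and 48400 CPM in aged libraries 1, 2 and 3 and to 79300, 69880 and 72460 CPM in HFD libraries 1, 2 and 3. The lower sum in every aged library gave p = 0.1 in a two-sided exact permutation test, the smallest that 3 against 3 allows. Without aged library 3 the groups still did not overlap, and the smallest exact p that 2 against 3 allows is 0.2. A sum gives most weight to abundant members. Lyz2 alone stood at 19240, 22520 and 20680 CPM in aged and at 42270, 36350 and 36420 CPM in HFD libraries. The members Cx3cr1 and Fcgr1 had the opposite order, with all aged libraries above all HFD libraries, so the lower sum does not hold for each marker. Itgam, which encodes the sorted CD11b, stood at 1.44, 112 and 73.0 CPM in aged and 23.6, 91.1 and 133 CPM in HFD libraries, so it was nearly missing from aged library 1.

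The 10-gene monocyte list stood higher in the aged libraries, at 2670, 2112 and 2317 CPM against 731, 584 and 289 CPM, again with an exact two-sided p = 0.1 (0.2, the smallest possible, without aged library 3). Control CCR2- CRMs held 729 to 795 CPM of it. One member, Fcnb, was at 0 in all 6 libraries. The platelet list had the opposite order, at 677 to 1152 CPM in aged and 2208 to 4794 CPM in HFD libraries, but without Pf4, which macrophages also make, it summed to at most 21.9 CPM. Cardiomyocyte genes summed to 19.8 to 72.9 CPM and were lower in every aged library, with Ryr2 at 0, and the fibroblast list ran from 257 CPM to 1294 CPM, the highest in HFD library 3. The same exact test also gave p = 0.1 for the platelet and cardiomyocyte lists. The neutrophil, B cell, T and NK cell, endothelial, mural, dendritic cell, mast cell, erythroid, adipocyte, Schwann cell and mesothelial lists overlapped between the groups, each at 959 CPM or less.

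**Figure D2:**
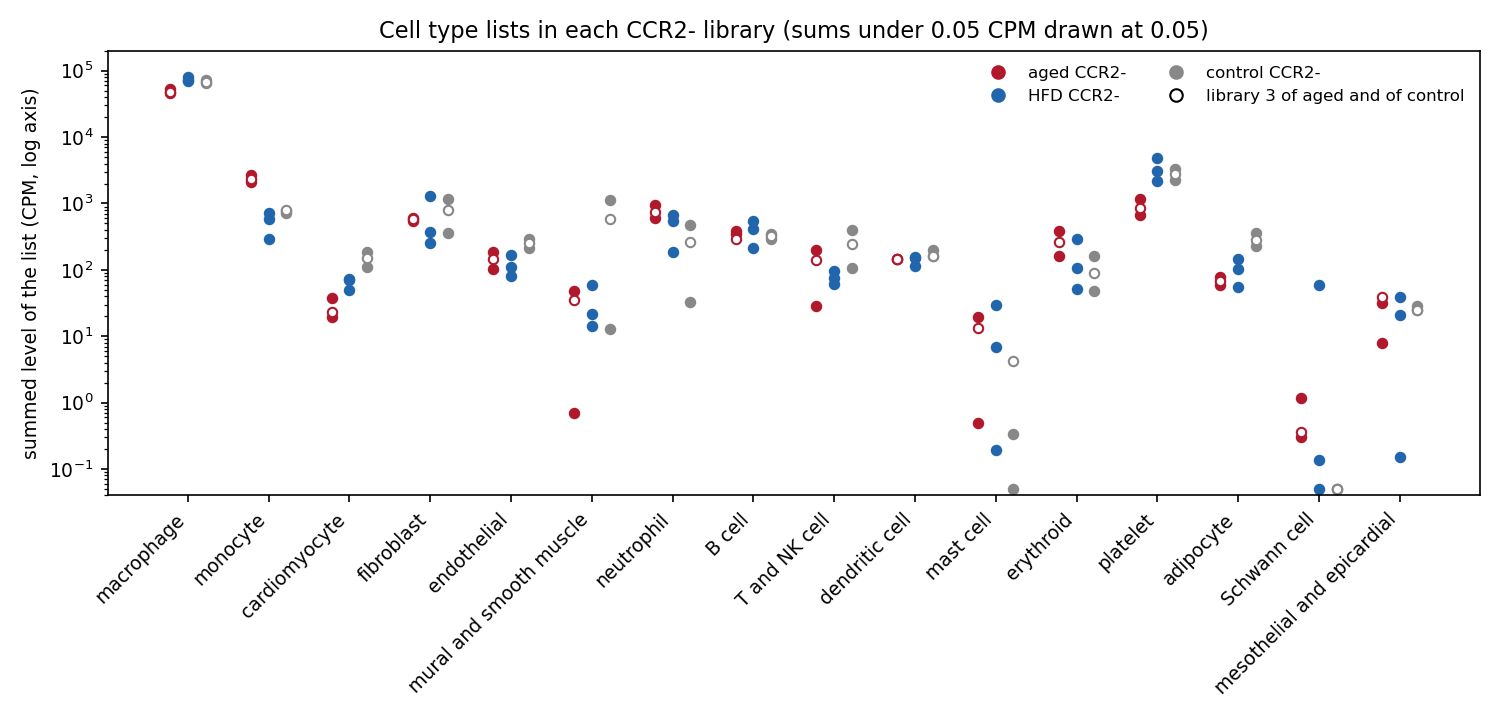
Summed level of 16 cell type lists (CPM, log axis) in each CCR2- library, with aged in red, HFD in blue and control in grey, and open circles for library 3 of the aged and control groups. The monocyte list lies at 2112 to 2670 CPM in aged and at 289 to 731 CPM in HFD libraries, and the macrophage list is lower in each aged library.

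Ccr2 itself (ENSMUSG00000049103, chromosome 9, 124101950 to 124113557 on GRCm38) was not equal in these CCR2- libraries. It stood at 93.9, 39.8 and 64.0 CPM in aged libraries, at 8.81, 35.9 and 6.41 CPM in HFD libraries and at 2.31 to 4.75 CPM in control libraries. Every aged library lay above every HFD library, though aged library 2 and HFD library 2 were close. The log2 fold change of 2.01 (SE 0.76, edgeR adjusted p = 0.314, or 2.18 without aged library 3) did not pass the test. Aged CCR2+ CRMs held 314 ± 145 CPM (SD, n = 3) of Ccr2. In bulk samples a different share of cells and a different amount of RNA per cell cannot be told apart.

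Over all genes tested, the contrast gave 0 called genes in either direction where a call required an adjusted p below 0.05 together with a log2 fold change past 2 (0.0% of 15456 genes, smallest adjusted p = 0.310). At an unadjusted p under 0.05, 730 genes were higher in aged CRMs (4.72%) and 1445 were lower (9.35%). DESeq2 on the 18 libraries called 407 higher and 734 lower, and limma-voom called 296 and 345. Without aged library 3, edgeR again called 0, with 572 genes higher and 1023 lower at an unadjusted p under 0.05. Every aged library lay above every HFD library for 1430 genes (9.25%) and below for 1249 genes (8.08%). The counts of separated genes below are set against these shares, but separation was more frequent at high levels. For genes averaging 200 CPM or more the shares were 17.5% and 14.3%, a closer background for lists rich in them. Such lists include those of mitochondrial mRNAs (11 of 13 members), MHC class II (10 of 16), lysosome (23 of 40) and cytokines (17 of 42). Over all genes the log2 fold change had a median of -0.17 with TMM scaling, -0.03 with library size alone and -0.25 with RLE factors.

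The spread between replicates was large, with a common dispersion of 1.48 over all genes. It was 0.227 over the 708 genes whose mean reached 200 CPM or more, and whose own TMM factors stayed at 0.942 to 1.05. A fit of these abundant genes, chosen after seeing the data, called 6 higher (0.847%) and 14 lower (1.98%) in aged CRMs at an adjusted p under 0.05. Of the 708, all aged libraries lay above all HFD libraries for 17.5% and below for 14.3%. These calls depended on every library, since in this edgeR fit of the 18 libraries leaving out any 1 of the 6 left 0 to 2 higher and 0 to 9 lower. Without aged library 3 this fit called 0 genes (smallest adjusted p = 0.105, 82 genes at an unadjusted p under 0.05). A fit of the 2 groups alone without aged library 3 called 16, of which 8 were among the 20, among them Apoe, Fcgrt, Fcrls, Gdf15, Pf4, Plbd1 and Psmb8. DESeq2 without library 3 of the aged and control groups called 27 abundant genes, which held all 20.

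The gene with the smallest adjusted p among abundant genes was Apoe (ENSMUSG00000002985, chromosome 7, 19696109 to 19699188), the apolipoprotein with which macrophages export cholesterol. It stood at 10730, 13340 and 11950 CPM in aged libraries, at 46260, 28680 and 29300 CPM in HFD libraries and at 21300 to 22570 CPM in control libraries. All aged libraries lay below both other groups, and all HFD libraries lay above them. The log2 fold change of Apoe among abundant genes was -1.56 (SE 0.27, edgeR adjusted p = 0.0113). Over all genes it was -1.64 (SE 0.34, adjusted p = 0.310), and without aged library 3 the abundant fit gave -1.55 (adjusted p = 0.105). The fit of the compared libraries alone without that library gave an adjusted p = 0.0347 for Apoe.

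Genes of resident macrophage identity stood lower in aged than in HFD CRMs. Of 25 members tested, 22 had a negative and 3 a positive log2 fold change, with a median of -1.10 (-0.95 without aged library 3, -1.63 without aged library 1 and -0.71 without HFD library 3), against -0.17 over all genes. All aged libraries lay below all HFD libraries for 13 members (52.0%) and above for 2 (8.0%), against 8.08% and 9.25% of all genes. At an unadjusted p under 0.05, 9 members were lower and 0 higher, against 9.35% and 4.72% of all genes. Aged library 1 was below every HFD library for 16 members and aged library 2 for 17, where this held for 28.8% and 19.7% of all genes. None was called over all genes, and in the abundant fit Pf4 and Cbr2 passed, and neither did so there without aged library 3.

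Folr2 (chromosome 7, 101839988 to 101857194), the folate receptor that marks resident heart macrophages, stood at 515, 214 and 331 CPM in aged and at 1914, 1278 and 1160 CPM in HFD libraries. Control libraries held 871 to 1211 CPM of Folr2, so the aged libraries lay below both groups. Its log2 fold change was -2.05 (SE 0.81, edgeR adjusted p = 0.314, or -1.86 without aged library 3). Lyve1 stood at 406, 96.8 and 225 CPM in aged and at 455, 656 and 1520 CPM in HFD libraries, and its highest aged and lowest HFD values lay close together. Cd163, the receptor for hemoglobin bound to haptoglobin, stood at 38.8, 31.2 and 26.2 CPM in aged and at 91.1, 225 and 650 CPM in HFD libraries. HFD library 3 held the most Cd163, Lyve1 and F13a1.

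Pf4 (chromosome 5, 90772435 to 90773383), a chemokine of platelets and resident macrophages, stood at 1151, 655 and 839 CPM in aged and at 4772, 3085 and 2208 CPM in HFD libraries. Its log2 fold change in the abundant fit was -1.96 (SE 0.38, adjusted p = 0.0245, or 0.138 without aged library 3). Cbr2, a carbonyl reductase of resident macrophages, stood at 1265, 455 and 801 CPM against 2737, 2383 and 2010 CPM. That fit gave Cbr2 a log2 fold change of -1.54 (SE 0.34, adjusted p = 0.0322, or 0.160 without aged library 3). Neither gene overlapped between the groups, and both stood within the HFD range in most control libraries. Ccl24, an eosinophil chemokine, stood at 46.2, 21.4 and 35.7 CPM in aged and at 348, 199 and 187 CPM in HFD libraries.

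Other scavenger and growth factor genes of the list had the same order. Mrc1, the mannose receptor, stood at 47.3 to 126 CPM in aged and 192 to 752 CPM in HFD libraries. Vsig4, a receptor for complement fragments, stood at 62.4 to 157 CPM against 217 to 587 CPM, and Gas6, a bridge to dying cells, at 70.8 to 108 CPM against 175 to 606 CPM. Timd4, a phosphatidylserine receptor that marks self-renewing resident cells, overlapped, since it stood at 88.7, 0.859 and 35.6 CPM in aged and at 38.5, 61.7 and 67.5 CPM in HFD libraries. The 2 members above all HFD libraries were Cx3cr1 (144, 245 and 205 CPM against 66.5, 100.2 and 25.02 CPM) and Fcgr1, the high-affinity IgG receptor (429, 222 and 310 CPM against 145, 130 and 6.52 CPM).

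Genes of monocyte-derived macrophages stood higher in the aged libraries. Of 19 members tested, 16 had a positive log2 fold change, with a median of 1.54, or 1.63 without aged library 3. All aged libraries were above all HFD libraries for 12 members (63.2%) and below for 0, against 9.25% and 8.08% of all genes. At an unadjusted p under 0.05, 7 were higher and 1 lower, against 4.72% and 9.35% of all genes. None was called over all genes. The list shares 9 genes with the monocyte list above, whose sum was also higher.

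Plac8 (chromosome 5, 100553725 to 100572245), a small protein abundant in inflammatory monocytes, stood at 1145, 1131 and 1135 CPM in aged libraries against 217, 204 and 110 CPM in HFD libraries. Control libraries held 55.0 to 139 CPM of it. The log2 fold change of Plac8 was 2.63 (SE 0.89, edgeR adjusted p = 0.310, or 2.77 without aged library 3), and the groups were far apart. Ly6c2, the classical monocyte antigen, stood at 343, 102 and 187 CPM against 30.8, 43.2 and 32.3 CPM. Treml4, a receptor of the patrolling kind of monocyte, stood at 202, 288 and 241 CPM against 63.2, 113 and 22.8 CPM, while control libraries held at most 2.46 CPM. Gpr141, an orphan receptor, stood at 51.3, 122 and 94.4 CPM against 0.573, 1.12 and 1.44 CPM.

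**Figure D3:**
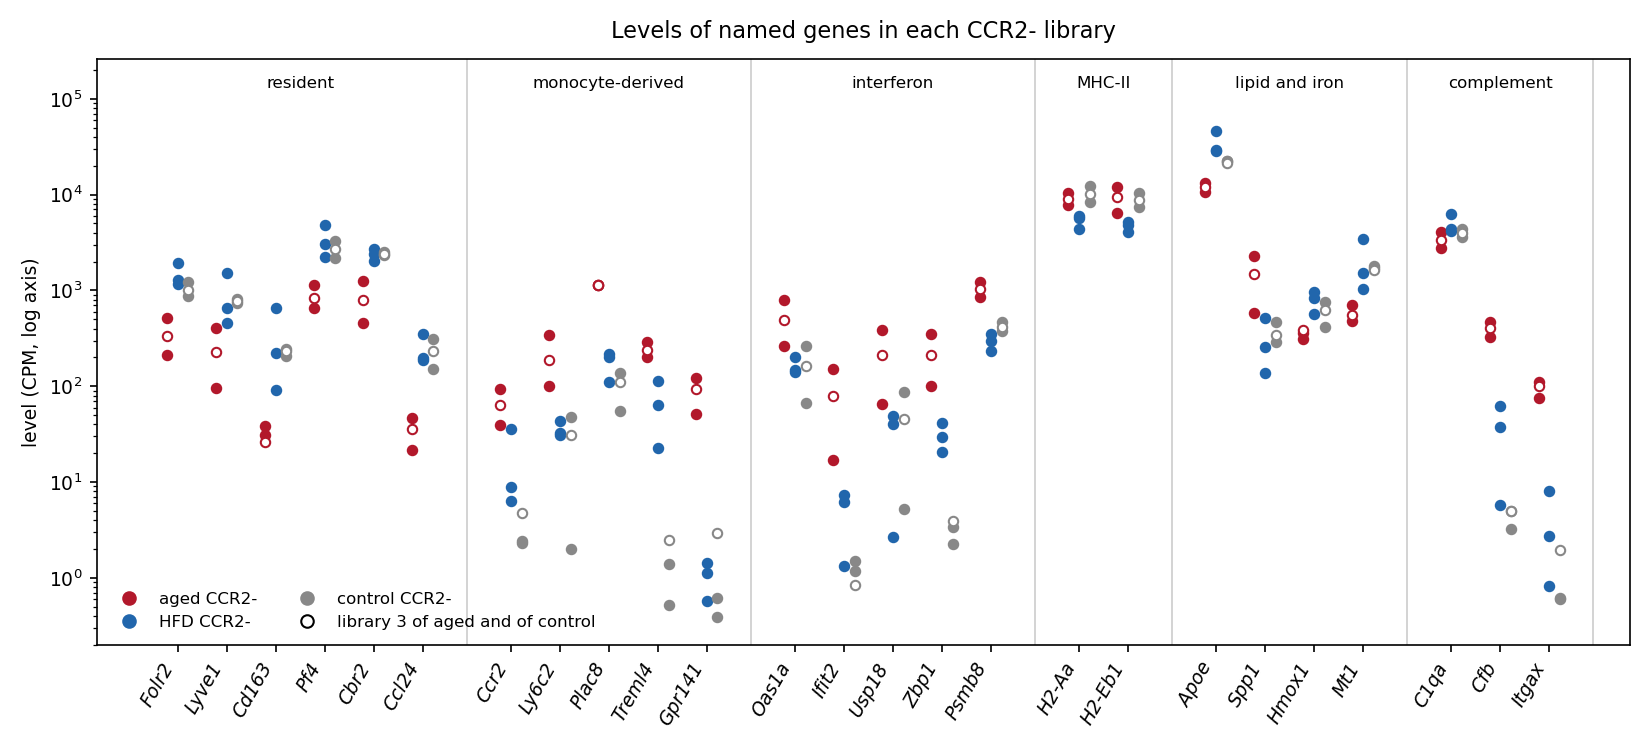
Levels of 25 named genes (CPM, log axis) in each CCR2- library, with aged in red, HFD in blue and control in grey, and open circles for library 3 of the aged and control groups. Resident genes such as Folr2 lie lower in aged libraries (214 to 515 against 1160 to 1914 CPM) and monocyte-derived and interferon genes such as Plac8 and Ifit2 lie higher.

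Genes of the interferon response had the highest median of the 26 lists, at 1.91 over 44 members, or 2.06 without aged library 3. Of the 44, 39 had a positive log2 fold change, and 17 (38.6%) were above all HFD libraries and 0 below, against 9.25% and 8.08% of all genes. At an unadjusted p under 0.05, 15 were higher and 0 lower, against 4.72% and 9.35% of all genes. None was called over all genes. Aged library 1 held the most, and its list sum was 20960 CPM against 6715 CPM in aged library 2, while HFD libraries held 6980, 5294 and 4635 CPM. The sums therefore overlapped. Aged library 1 was above every HFD library for 35 members and aged library 2 for 22, where this held for 21.7% and 26.9% of all genes. Without aged library 1 the median was 1.23, below the 1.35 of the monocyte-derived list.

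Psmb8, an immunoproteasome subunit outside the list, on chromosome 17 (34197721 to 34201454), stood at 1237, 851 and 1024 CPM against 350, 298 and 235 CPM. The log2 fold change of Psmb8 in the abundant fit was 1.79 (SE 0.44, adjusted p = 0.0404, or 0.160 without aged library 3). The groups were well apart for Psmb8.

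Ifit2, Usp18 and Zbp1 stood higher in aged library 1 than in aged library 2, which does not hold for all members. Ifit2, which blocks translation of viral RNA, stood at 153, 16.9 and 79.7 CPM in aged and at 7.38, 6.27 and 1.33 CPM in HFD libraries. Usp18, which removes ISG15 and limits interferon signalling, stood at 389, 66.1 and 213 CPM against 40.8, 48.6 and 2.67 CPM. Zbp1, a sensor of nucleic acids in Z form, stood at 351, 100 and 212 CPM against 41.8, 29.6 and 20.7 CPM. For Ifit2, Usp18 and Zbp1 aged library 2 was the lowest aged value and still above the HFD libraries. Counts within the Ifit, Oas, Gbp and Ifi200 families, and likewise of Ly6c, MHC and metallothionein genes, are uncertain, since how reads shared by near-identical genes were counted is not given in the sources used here.

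The promoters of 4 interferon genes above all HFD libraries are shown because type I interferon acts through a repeated GAAA element. These 4 had the highest aged means among the separated members with a match. Each line gives the 250 bases before the start in RefSeq on GRCm38.p6, 5′ to 3′ on the gene's strand, with capitals on matches to GAAANNGAAA or, on the other strand, TTTCNNTTTC.
Oas1a (chr5:120907526-120907775, minus strand): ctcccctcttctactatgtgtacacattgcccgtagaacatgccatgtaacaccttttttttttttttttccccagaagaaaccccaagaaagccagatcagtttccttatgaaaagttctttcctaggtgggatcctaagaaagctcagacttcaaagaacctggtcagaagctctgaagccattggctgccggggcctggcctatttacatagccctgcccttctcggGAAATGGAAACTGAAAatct
Ifi205 (chr1:174031756-174032005, minus strand): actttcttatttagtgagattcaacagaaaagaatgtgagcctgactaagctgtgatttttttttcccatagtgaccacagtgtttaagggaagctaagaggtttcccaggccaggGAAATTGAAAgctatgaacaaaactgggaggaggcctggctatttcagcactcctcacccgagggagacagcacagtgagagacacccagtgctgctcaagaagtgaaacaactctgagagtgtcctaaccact
Cxcl10 (chr5:92348890-92349139, minus strand): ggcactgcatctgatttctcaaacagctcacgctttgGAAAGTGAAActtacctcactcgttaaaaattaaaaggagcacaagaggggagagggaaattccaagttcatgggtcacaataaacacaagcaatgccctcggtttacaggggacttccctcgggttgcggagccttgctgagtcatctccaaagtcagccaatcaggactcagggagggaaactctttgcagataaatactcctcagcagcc
Gbp3 (chr3:142559794-142560043, plus strand): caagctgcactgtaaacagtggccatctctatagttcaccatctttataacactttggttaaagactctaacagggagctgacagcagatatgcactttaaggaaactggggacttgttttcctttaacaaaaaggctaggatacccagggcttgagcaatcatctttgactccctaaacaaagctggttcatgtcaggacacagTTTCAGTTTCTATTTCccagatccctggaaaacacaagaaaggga

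Matches of the motif in Oas1a and in Gbp3 overlap each other, and a later start of Gbp3 had none. Promoters were on hand for 33 tested interferon genes, and 20 (60.6%) held a match, against 3.46% of 27025 genes. Among members above all HFD libraries 7 of 13 (53.8%) held one, and among those that overlapped 13 of 20 (65.0%) did. A match says only that these letters occur in the window.

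Oas1a, an enzyme that makes the activator of RNase L, stood at 794, 263 and 488 CPM in aged and at 200, 147 and 140 CPM in HFD libraries. Ifi205, a DNA-binding protein, stood at 290, 124 and 195 CPM against 35.7, 32.3 and 75.6 CPM. Cxcl10, the T cell chemokine, stood at 185, 214 and 203 CPM against 86.7, 92.1 and 162 CPM, and Gbp3, a guanylate-binding protein, at 139, 185 and 165 CPM against 29.5, 93.7 and 1.90 CPM. Control levels were below the aged libraries for all 4, except that Oas1a reached 264 CPM in control library 1.

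**Figure D4:**
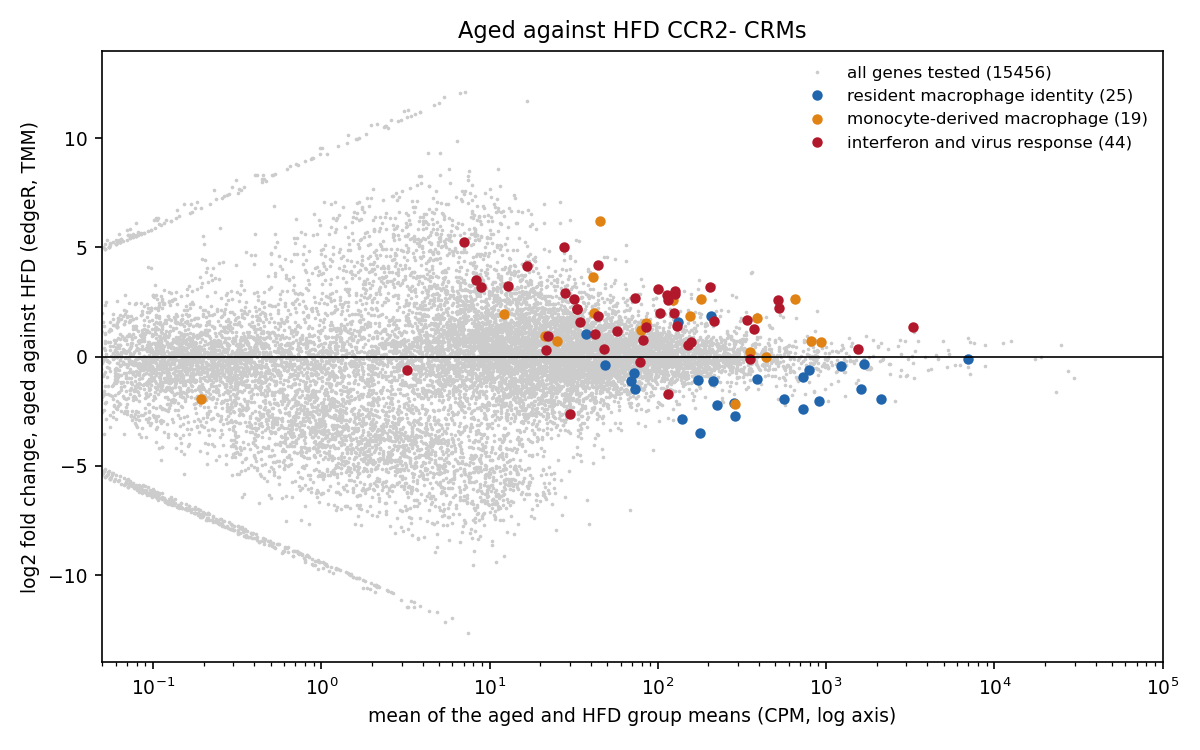
Log2 fold change of aged against HFD CCR2- CRMs (edgeR, TMM) against the mean of the group means (CPM, log axis) for 15456 genes in grey, with 3 lists in colour. Interferon (39 of 44) and monocyte-derived (16 of 19) members lie mostly above 0 and resident members (22 of 25) mostly below, while the grey cloud narrows as the level rises.

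The list of nucleic acid sensing, upstream of interferon, was divided, with a median of 0.09 (0.14 without aged library 3, -0.28 without aged library 2 and 0.22 without HFD library 3) over 24 members, 4 above all HFD libraries (16.7%) and 2 below (8.33%). Samhd1, which degrades nucleotides, stood at 883, 508 and 669 CPM in aged and at 153, 191 and 220 CPM in HFD libraries. Adar, which edits double-stranded RNA, stood at 82.3, 8.55 and 40.1 CPM against 3.50, 0.714 and 0.681 CPM. In contrast, Ticam1, the adaptor of TLR3, stood at 0.342, 0.592 and 0.400 CPM against 4.68, 33.0 and 52.6 CPM, and Tlr9, the sensor of bacterial DNA, at most at 0.218 CPM in aged and at 2.96 to 4.88 CPM in HFD libraries.

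MHC class II genes had a median of 0.61 (0.72 without aged library 3 and 0.46 without aged library 1) over 16 members, of which 11 were positive, 4 (25%) were above all HFD libraries and 0 below. H2-Eb1 (chromosome 17, 34305867 to 34316674), a beta chain of MHC class II, stood at 6434, 12160 and 9455 CPM in aged and at 5167, 4781 and 4103 CPM in HFD libraries. Its log2 fold change in the abundant fit was 0.98 (SE 0.26, adjusted p = 0.0484, or 0.160 without aged library 3). H2-Aa, the alpha chain, stood at 7799, 10340 and 9091 CPM against 5930, 5682 and 4407 CPM. Control libraries held 7345 to 10450 CPM of H2-Eb1 and 8290 to 12200 CPM of H2-Aa, so the HFD libraries were the low group for both. Ctss, the protease that frees the peptide groove, stood at 6253 to 6321 CPM in aged and 2818 to 3988 CPM in HFD libraries. H2-Oa was low and overlapped, at 0.683 to 0.926 CPM against 0.644 to 16.2 CPM.

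Lipid genes beyond Apoe were divided. The list of uptake, storage and efflux had a median of 0.05 (0.08 without aged library 3, -0.25 without aged library 1 and 0.57 without HFD library 3) over 35 members, with 5 above (14.3%) and 4 below (11.4%). Spp1, osteopontin, stood at 584, 2315 and 1488 CPM in aged and at 515, 137 and 254 CPM in HFD libraries, and aged library 1 was near HFD library 1. Gpnmb, a glycoprotein of lipid-laden macrophages, stood at 64.0, 166 and 125 CPM against 33.5, 18.4 and 1.05 CPM. Abca1, the cholesterol pump that loads Apoe, stood at 44.3, 15.7 and 26.6 CPM against 100.3, 86.0 and 252 CPM, below the control libraries as well (182 to 197 CPM). The partner pump Abcg1 had the opposite order, at 97.6, 245 and 184 CPM against 46.4, 37.4 and 90.1 CPM.

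Cholesterol biosynthesis had a median of 0.54 (0.49 without aged library 3, 0.29 without aged library 2, 1.10 without HFD library 1, 0.91 without HFD library 2 and 0.97 without aged library 1) over 25 members, 5 above (20%) and 1 below (4.0%). Msmo1, the methylsterol monooxygenase, stood at 69.1 to 70.5 CPM in aged and 2.49 to 37.1 CPM in HFD libraries, and Cyp51 at 44.5 to 58.7 CPM against 2.17 to 26.1 CPM. Sc5d, a later desaturase, went the other way, at 1.52 to 3.49 CPM against 12.1 to 44.8 CPM, and Nsdhl overlapped at 0.286 to 1.04 CPM against 0.579 to 43.9 CPM. Fatty acid oxidation and PPAR genes had a median of 0.11 (0.20 without aged library 3, -0.17 without aged library 1 and 0.27 without HFD library 2) over 26 members, 1 above (3.85%) and 3 below (11.5%). Angptl4, a PPAR target that inhibits lipoprotein lipase, stood at 0.581 to 1.01 CPM in aged and at 1.22, 26.7 and 49.0 CPM in HFD libraries. Acads, which oxidises short chains, stood at 0.455 to 3.21 CPM against 4.61 to 42.8 CPM.

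Iron and heme genes stood lower, with a median of -0.44 (-0.34 without aged library 3, -0.57 without aged library 2 and -0.33 without HFD library 2) over 28 members, 8 below (28.6%) and 3 above (10.7%). At an unadjusted p under 0.05, 7 were lower and 1 higher, against 9.35% and 4.72% of all genes. Hmox1 (chromosome 8, 75093621 to 75100589), which degrades heme, stood at 311, 360 and 385 CPM in aged and at 570, 836 and 954 CPM in HFD libraries. Hmox1 had a log2 fold change of -1.31 (SE 0.40, edgeR adjusted p = 0.310, or -1.24 without aged library 3). Trf, transferrin, stood at 980, 753 and 826 CPM against 1834, 3025 and 2017 CPM, and Ftl1, the ferritin light chain, at 22700, 21390 and 21680 CPM against 40040, 31450 and 27970 CPM. Aco1, the iron sensor IRP1, stood at 0.550 to 1.63 CPM against 4.48 to 65.4 CPM. Those above were Hp, Slc11a1, the phagosomal metal transporter (456 to 471 CPM against 83.3 to 332 CPM), and Nfe2l2.

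Metallothioneins, which bind zinc and copper, were low in the aged libraries. Mt1 stood at 706, 477 and 555 CPM against 3485, 1535 and 1037 CPM, and control libraries held 1653 to 1803 CPM. In the abundant fit Mt1 had a log2 fold change of -1.83 (SE 0.45, adjusted p = 0.0404, or 0.160 without aged library 3). Mt2 stood at 63.8 to 108 CPM against 179 to 505 CPM. The list of oxidative stress and respiratory burst, which holds Mt1 and Mt2, was divided, with a median of 0.11 (0.06 without aged library 3, -0.04 without aged library 1 and 0.18 without HFD library 3) over 30 members, 7 above (23.3%) and 4 below (13.3%). Gsr, glutathione reductase, stood at 314, 439 and 394 CPM in aged and at 48.6, 52.1 and 72.0 CPM in HFD libraries, and Cybb, the catalytic subunit of the phagocyte oxidase, at 895, 1517 and 1255 CPM against 236, 657 and 570 CPM.

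Complement genes had a median of -0.58 (-0.45 without aged library 3, -0.88 without aged library 1, -0.10 without HFD library 3 and -0.32 without aged library 2) over 27 members, 5 below (18.5%) and 2 above (7.41%). C1qa, a chain of the initiating complex, stood at 4104, 2807 and 3352 CPM in aged and at 6227, 4412 and 4142 CPM in HFD libraries, and Cfp, properdin, at 368 to 656 CPM against 982 to 1231 CPM. Cfb (chromosome 17, 34856374 to 34862518), the protease of the alternative pathway, stood at 323, 463 and 406 CPM in aged, 5.71, 37.4 and 62.7 CPM in HFD and 3.22 to 5.02 CPM in control libraries. The log2 fold change of Cfb was 3.27 (SE 1.66, edgeR adjusted p = 0.390, or 3.39 without aged library 3), with every aged library far above. Itgax, the CD11c chain of a complement receptor, stood at 75.3, 110 and 100.8 CPM against 8.03, 2.76 and 0.829 CPM. C2 was at or below 0.218 CPM in aged and at 8.07, 18.4 and 0.239 CPM in HFD libraries. C4b, the classical pathway component, stood at 82.6 to 89.3 CPM against 34.8 to 126 CPM and overlapped, as did C6 (0 to 29.8 CPM against 0 to 11.6 CPM).

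Fc receptor and phagocytosis genes had a median of 0.25 (0.39 without aged library 3, -0.03 without HFD library 1, 0.52 without HFD library 3 and 0.16 without aged library 1) over 35 members, 8 above (22.9%) and 4 below (11.4%). Fcgr3, the activating low-affinity receptor, stood at 2430, 2250 and 2294 CPM in aged and at 4579, 4248 and 4156 CPM in HFD libraries. Fcgr4, another activating receptor, had the opposite order, at 489, 752 and 641 CPM against 153, 151 and 136 CPM. Fgr, a Src family kinase, stood at 298 to 341 CPM against 4.46 to 64.1 CPM. Outside the list, Fcgrt, the recycling receptor for IgG, stood at 540, 309 and 400 CPM against 1762, 1743 and 1426 CPM, and its log2 fold change in the abundant fit was -2.02 (SE 0.50, adjusted p = 0.0404, or 0.160 without aged library 3). Fcrls, an Fc receptor-like scavenger, stood at 257, 171 and 199 CPM against 699, 981 and 1093 CPM. For Fcrls that log2 fold change was -2.18 (SE 0.48, adjusted p = 0.0322, or 0.160 without aged library 3). Rac1 and Grb2, which act in uptake and receptor signalling, overlapped, at 503 to 551 CPM against 378 to 600.3 CPM and at 189 to 203 CPM against 71.7 to 196 CPM.

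Cytokine, chemokine and NF-kB genes had a median of -0.11 (-0.09 without aged library 3, -0.37 without HFD library 2 and 0.11 without HFD library 3) over 42 members, 11 below (26.2%) and 6 above (14.3%). Il1b stood at 1684, 3045 and 2384 CPM in aged and at 959, 1097 and 1227 CPM in HFD libraries (log2 fold change 0.95, SE 0.39, edgeR adjusted p = 0.316, or 1.07 without aged library 3). Traf1, an adaptor of TNF receptors, stood at 169, 192 and 172 CPM against 40.3, 41.4 and 44.0 CPM, above the 3.35 to 5.75 CPM of control libraries. Cxcl13, the B cell chemokine, stood at 256, 813 and 569 CPM against 54.1, 249 and 69.8 CPM. Below were the neutrophil chemokine Cxcl2 (6825, 4221 and 5258 CPM against 8188, 8827 and 9950 CPM) and Ccl6, Ccl9 and Nfkb1. Ccl8 overlapped, at 443 to 529 CPM against 209 to 627 CPM. Gdf15, a stress cytokine outside the list, stood at 332, 260 and 303 CPM against 1094, 874 and 888 CPM, with a log2 fold change of -1.71 (SE 0.42) in the abundant fit and an adjusted p = 0.0404, or 0.160 without aged library 3.

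Immediate-early and heat-shock genes had a median of -0.17 (-0.07 without aged library 3, -0.42 without aged library 1 and 0.54 without HFD library 3) over 38 members, 6 below and 6 above (15.8% each). Ier3, an early gene that restrains cell death, stood at 336, 267 and 299 CPM in aged and at 651, 634 and 834 CPM in HFD libraries (abundant fit, adjusted p = 0.0404, or 0.160 without aged library 3), and Jun at 418 to 539 CPM against 744 to 2109 CPM. Btg1, which restrains proliferation, stood at 614, 804 and 694 CPM against 108, 287 and 374 CPM. Hspa8, a chaperone, stood at 5076, 2521 and 3604 CPM against 1660, 2368 and 2455 CPM. Activity of such genes in digested tissue depends on handling, and its part here was not tested.

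Wound healing and matrix genes stood lower, with a median of -0.83 (-0.77 without aged library 3, -1.20 without HFD library 2 and -0.04 without HFD library 3) over 40 members, 9 below (22.5%) and 2 above (5.0%). Hbegf, a growth factor of the EGF family, stood at 30.3 to 31.4 CPM in aged and 190 to 251 CPM in HFD libraries. Timp2, an inhibitor of matrix proteases, stood at 407, 497 and 450 CPM against 1212, 1047 and 1497 CPM, and Igf1, a growth factor of resident macrophages, at 132 to 156 CPM against 224 to 384 CPM. The collagens Col4a1 (0.191 to 0.708 CPM against 0.631, 32.0 and 12.1 CPM) and Col5a1 (0 CPM against 5.26, 0 and 0.552 CPM) were near 0 in aged libraries. Both overlapped, since some HFD libraries were as low. Of the 7 list members among abundant genes, 4 were higher in aged CRMs, with a median of 0.20 in the abundant fit.

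Lysosome genes had a median of -0.20 (-0.06 without aged library 3, -0.33 without HFD library 1 and 0.04 without HFD library 3) over 40 members, 4 above and 4 below (10% each). Lyz2, lysozyme, stood at 19240, 22520 and 20680 CPM in aged and at 42270, 36350 and 36420 CPM in HFD libraries, with a log2 fold change of -0.91 (SE 0.21) among abundant genes and an adjusted p = 0.0322, or 0.160 without aged library 3. Cd63, a membrane protein of late endosomes, stood at 515, 574 and 529 CPM against 1893, 1233 and 1149 CPM. Autophagy genes had a median of -0.17 (-0.36 without aged library 3, -0.45 without aged library 2 and -0.12 without HFD library 3) over 39 members, 7 below (17.9%) and 6 above (15.4%). Map1lc3b, the membrane tag of autophagosomes, stood at 260, 255 and 247 CPM against 492, 555 and 648 CPM (abundant fit, adjusted p = 0.0404, or 0.160 without aged library 3). The initiator Ulk1 stood at 0.323 to 0.963 CPM against 4.13 to 54.3 CPM, while the regulator Ambra1 stood at 20.4 to 24.6 CPM against 0 to 0.331 CPM.

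Mitochondrially encoded mRNAs were all negative, 0 of 13 higher, with a median of -0.63 (-0.58 without aged library 3, -0.80 without HFD library 2 and -0.46 without HFD library 3) and 6 (46.2%) below all HFD libraries. None passed an unadjusted p under 0.05. In CCR2+ CRMs 0 of the 13 were higher as well, with a median of -0.51 and none separated. These genes also count in the mitochondrial share given above. mt-Nd2, a subunit of complex I, stood at 298, 394 and 371 CPM in aged, 583, 590 and 611 CPM in HFD and 813 to 1300 CPM in control libraries. mt-Nd4 stood at 392, 672 and 593 CPM against 802, 763 and 1101 CPM. Nuclear genes of oxidative phosphorylation had a median of -0.14 (-0.01 without aged library 3 and -0.30 without HFD library 2) over 42 members, near that of all genes, with 3 above (7.14%) and 2 below (4.76%). Cox5b stood at 94.4 to 137 CPM against 155 to 240 CPM, and Cox6c overlapped at 141 to 146 CPM against 134 to 376 CPM.

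Glycolysis and hypoxia genes had a median of 0.19 (0.28 without aged library 3, 0.09 without aged library 1 and 0.62 without HFD library 3) over 26 members, 5 above (19.2%) and 0 below. Pkm, pyruvate kinase, stood at 918, 944 and 976 CPM in aged and at 565, 608 and 431 CPM in HFD libraries, and Slc16a3, the lactate exporter, at 185, 397 and 307 CPM against 52.2, 131 and 89.9 CPM. Car9, a hypoxia target, was at most 0.436 CPM in aged and 0.0765, 0.116 and 41.6 CPM in HFD libraries, so its negative log2 fold change came from HFD library 3 and turned positive without it (1.45).

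The remaining lists had medians from -0.23 to 0.12. Ribosomal protein genes had a median of -0.23 (-0.14 without aged library 3, -0.39 without aged library 1 and -0.01 without HFD library 1) over 77 members, 0 above and 4 below (5.19%), with Rps25 at 193 to 322 CPM against 347 to 524 CPM and Rpl37a overlapping at 235 to 251 CPM against 249 to 608 CPM. Splicing factors had a median of 0.08 (0.17 without aged library 3, -0.10 without HFD library 1 and 0.27 without HFD library 3) over 66 members, 11 above (16.7%) and 4 below (6.06%), with the kinase Clk4 at 67.5 to 155 CPM against 2.52 to 34.3 CPM and Prpf6 at 0.493 to 1.58 CPM against 3.57 to 48.0 CPM. Cell cycle genes had a median of 0.04 (0.10 without aged library 3, 0.01 without aged library 2 and 0.28 without HFD library 2) over 37 members, 4 above (10.8%) and 2 below (5.41%). The mitotic kinase Aurka stood at 48.0 to 68.3 CPM against 0.617 to 6.14 CPM, and the mitotic motor Kif20a at 0.550, 23.2 and 13.4 CPM against 0.116 to 0.822 CPM.

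Senescence and DNA damage genes had a median of 0.12 (0.22 without aged library 3, -0.16 without aged library 1 and 0.59 without HFD library 3) over 34 members, 4 above (11.8%) and 1 below (2.94%). Xrcc5, the Ku80 repair protein, stood at 34.4, 0.802 and 17.3 CPM in aged and at 0.331 to 0.478 CPM in HFD libraries, and Atm, the damage kinase, at 14.5, 1.24 and 9.01 CPM against 0 to 0.184 CPM. Both were high in aged library 1 and near the HFD libraries in aged library 2. Genes of the unfolded protein response had a median of 0.07 (0.18 without aged library 3, 0.04 without aged library 2 and 0.34 without HFD library 3) over 37 members, 4 above (10.8%) and 2 below (5.41%), with Trib3 at 0 to 0.0763 CPM against 0.270 to 7.65 CPM and Chac1 at 0.0759, 18.2 and 8.54 CPM against 0 to 0.147 CPM. Insulin and nutrient signalling had a median of -0.04 (-0.06 without aged library 3, -0.38 without aged library 1 and 0.22 without HFD library 2) over 35 members, 2 above (5.71%) and 5 below (14.3%). Prkab1, a subunit of the energy sensor AMPK, stood at 0.744 to 0.963 CPM against 6.79, 15.7 and 62.2 CPM, and Mlxipl, a carbohydrate-responsive factor, at 0, 11.8 and 6.14 CPM against 0 CPM.

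**Figure D5:**
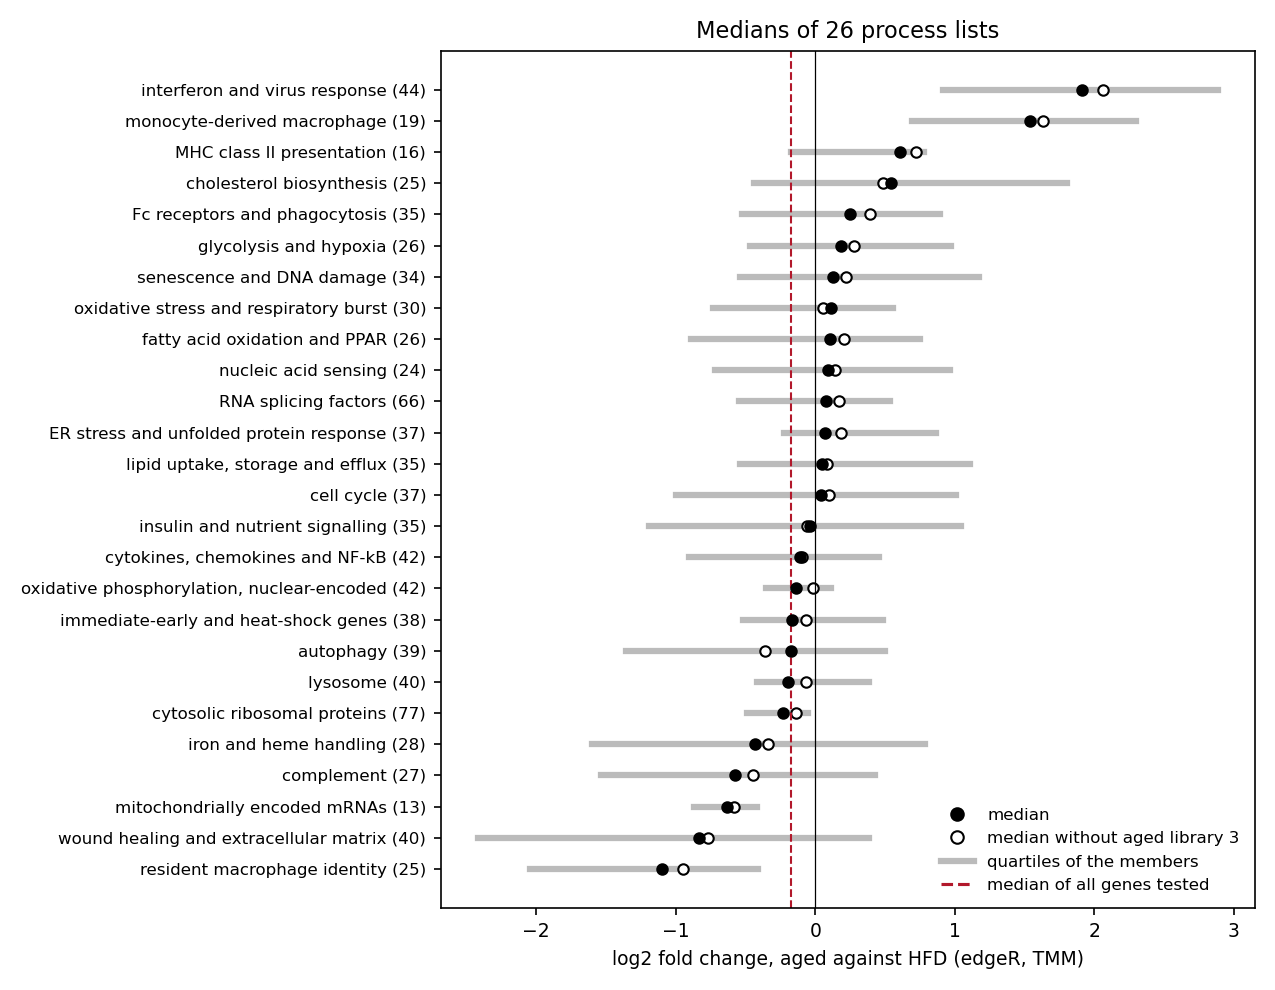
Median log2 fold change of aged against HFD CCR2- CRMs (edgeR, TMM) for 26 gene lists with the number of members tested, filled circles with all libraries, open circles without aged library 3, and grey bars for the quartiles of the members. The interferon list (1.91) and the resident list (-1.10) are at the ends, with the median of all genes (-0.17) as a dashed line.

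Outside the lists, the genes with the smallest unadjusted p mostly stood near 0 in one group, and none was called (adjusted p = 0.310 for each). Among those higher in aged CRMs, Sema4d (chromosome 13, 51685529 to 51793747), a semaphorin, stood at 131, 121 and 129 CPM against 1.53, 4.36 and 4.22 CPM, with a log2 fold change of 5.11 (SE 1.18, or 5.24 without aged library 3). Serpina3f, a protease inhibitor, stood at 0.702, 53.4 and 30.0 CPM against 0.147 to 0.154 CPM, so it rested on aged library 2. Runx2, a transcription factor, stood at 11.96 to 20.5 CPM against at most 0.344 CPM. Ccl11, the eosinophil chemokine eotaxin, stood at 9.49 to 12.7 CPM against 0 in all 3 HFD libraries. The others were G6pc3, Asxl2, Mybl2, Nomo1, Fam76b, Serpinb9b, Rdh13 and Gatb, with HFD libraries below 1 CPM for all 8. Of these, Mybl2 (0.588, 33.7 and 18.2 CPM in aged libraries) and Serpinb9b (0.0759, 28.3 and 14.5 CPM) also rested on aged library 2.

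Among those lower in aged CRMs, Gpr34 (chromosome X, 13632089 to 13640858), a lysophosphatidylserine receptor of resident macrophages and microglia, stood at 1.33, 1.64 and 0.490 CPM against 30.8, 142 and 236 CPM. The log2 fold change of Gpr34 was -7.01 (SE 1.42, or -6.59 without aged library 3), and control libraries held 78.3 to 109 CPM, so the aged libraries were the low group. Grap, an adaptor protein, stood at 3.59, 4.45 and 3.98 CPM against 113, 86.3 and 73.1 CPM, with 73.5 to 183 CPM in control libraries. Selenop, the selenium transport protein, stood at 847, 1369 and 1107 CPM against 2195, 4273 and 5684 CPM, with a log2 fold change of -1.90 (SE 0.39) among abundant genes and an adjusted p = 0.0245, or 0.138 without aged library 3. The others were Chp2, Ano10, Cog1, Maged1, Pla2g12a, Cracr2b, Pigv and Abcb6, each at 1.53 CPM or less in every aged library. Control libraries were also at 1.43 CPM or less for Cog1, Pla2g12a, Cracr2b and Abcb6, so the HFD libraries were the high group for these. The highest control values were 17.7 CPM for Chp2, 100.4 CPM for Ano10, 78.8 CPM for Maged1 and 39.5 CPM for Pigv. Rhoh and Nr2c2, also on the list of genes to name, overlapped, at 1.27 to 3.07 CPM against 0.865 to 16.9 CPM and at or below 1.54 CPM.

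Of the 20 genes called among abundant genes, 5 more were named after their values were seen. Plbd1, a phospholipase-like lysosomal protein on chromosome 6 (136612070 to 136661928), stood at 271, 580 and 435 CPM in aged and at 96.6, 120 and 63.8 CPM in HFD libraries, with a log2 fold change of 2.19 (SE 0.49, adjusted p = 0.0322, or 0.138 without aged library 3). Pfn1, an actin-binding protein, stood at 2391 to 2522 CPM against 1031 to 1621 CPM. On the lower side, Wfdc17 stood at 917 to 971 CPM against 1523 to 2715 CPM, Ninj1, which ruptures dying cells, at 549 to 761 CPM against 1227 to 1931 CPM, and Glul, glutamine synthetase, at 300 to 463 CPM against 742 to 1370 CPM. Adjusted p-values without aged library 3 were 0.138 to 0.166 for these.

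The same contrast in CCR2+ CRMs, with other libraries, had 0 called genes (2057 at an unadjusted p under 0.05), and 0 among abundant genes (smallest adjusted p = 0.0832). The test of whether the difference was unlike in the CCR2- and CCR2+ subsets called 0 genes over all (2294 at an unadjusted p under 0.05, smallest adjusted p = 0.0919) and 0 among abundant genes (35, smallest adjusted p = 0.249). DESeq2 called 1005 genes in that test and limma-voom 56. These fits took CCR2- and CCR2+ libraries as unpaired, and whether they came from the same hearts is not given in the labels. In CCR2+ CRMs the interferon list had a median of 0.89, with 38 of 44 higher, the monocyte-derived list 0.31, the resident list -0.87 and the MHC class II list -0.70, with 3 of 16 higher. The CCR2+ median over all genes was -0.06. All aged CCR2+ libraries were above all HFD ones for 7 of 44 interferon, 4 of 19 monocyte-derived, 2 of 25 resident and 0 of 16 MHC class II members. They were below for 0, 0, 3 and 3 members. Over all genes these shares were 7.3% above and 3.63% below. Apoe stood at 7619 ± 2263 CPM (SD, n = 3) in aged and 13230 ± 2798 CPM (SD, n = 3) in HFD CCR2+ CRMs, with each aged library below each HFD library. H2-Eb1 stood at 12750 ± 3205 CPM (SD, n = 3) against 16850 ± 1716 CPM (SD, n = 3), the reverse of the order of means in CCR2- CRMs, with overlapping libraries, and the difference between subsets did not pass the test (adjusted p = 0.249 among abundant genes).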

How the data were processed

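RNA was sequenced from FACS-sorted CRMs after TRI Reagent extraction and SMART-Seq v4 amplification. After trimming in Cutadapt, the authors aligned reads in HISAT2 and ran StringTie. What they deposited was a table of raw counts, 1 line per Ensembl gene. Tool versions and the counting of reads shared between genes or strands are not given in the sources used here. Gene names and positions were taken from the GENCODE M21 annotation of GRCm38 (55141 of 55401 genes matched).

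The 18 libraries were grouped by their labels and fitted together by group with edgeR 4.0.16 in R 4.3.3 (filterByExpr, TMM, quasi-likelihood test, Benjamini-Hochberg adjustment over 15456 genes). Calls required an adjusted p below 0.05 together with a log2 fold change past 2. Printed levels are CPM of the library total rather than of TMM library sizes, because TMM factors over all genes ran from 0.427 to 1.46 and moved aged library 3 away from libraries 1 and 2. Abundant genes (mean of at least 200 CPM, 708 genes) were refitted with their own TMM factors. That fit and the fits without library 3 of the aged and control groups were chosen after seeing the data. Scripts were tested on simulated data.

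The comparison, the 26 process lists and the 16 cell type lists were chosen with earlier results of these data known, and 3 of 998 listed symbols were not matched. Named genes were the 12 with the smallest p in each direction (protein-coding, mean of at least 10 CPM in the higher group, log2 fold change beyond 2, none called), the 2 with the smallest p in each list, and 15 marker and qPCR genes. Some genes that the rule names are not reported here. Other named list members were chosen after their values were seen. Alternatives were DESeq2 1.42.0, limma 3.58.1 voom, other scalings and filters, a replicate block and leaving out each library. Motifs were searched in RefSeq promoter sequences on GRCm38.p6. Figures used matplotlib.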

Additional observations from a re-analysis of the deposited data

How the results depend on the processing

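Over all genes, edgeR called 0 higher and 0 lower with library size alone, RLE factors, other filters, the compared libraries alone or any 1 library left out. DESeq2 called 407 higher and 734 lower in 18 libraries, 638 and 906 in the compared libraries, and 151 and 606 without library 3 of the aged and control groups. For limma-voom the counts were 296 and 345. The test between subsets called 1005, 977 and 730 genes by DESeq2 in the same settings, 56 by limma-voom, 231 with no filter and 7 with at least 10 counts in every library. With refitted genes above a minimum mean, those past a log2 fold change of 2 were 0 higher and 2 lower at 100 CPM, 2 and 2 at 200 CPM and 1 and 0 at 500 CPM. At an adjusted p alone, 0 and 0 passed at 20 and 50 CPM, 0 and 7 at 100 CPM, and 13 and 15 at 500 CPM.

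For abundant genes, counted at an adjusted p under 0.05 alone, TMM factors from all genes left 0 higher and 0 lower. The compared libraries alone gave 26 and 37 by edgeR (10 and 6 without aged library 3) and 56 and 57 by DESeq2, 18 libraries gave 27 and 34 by DESeq2, and limma-voom gave 94 and 102. With edgeR on the 18 libraries, leaving out single libraries, or library 3 of the aged and control groups, gave 0 to 2 higher and 0 to 9 lower, while DESeq2 without both of those gave 8 and 19. The cause of these differences was not tested.

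Same-numbered aged and HFD libraries did not deviate together (r = -0.0027, 0.0215 and -0.0556). These values do not settle whether numbers pair the libraries, since genes missing from single libraries also enter the deviations. The labels do not say whether same-numbered libraries were prepared together. A fit with the replicate number as a block called 0 and 0 genes over all, 0 between subsets and 6 and 18 abundant genes, and gave Rac1 a log2 fold change of 0.05.

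Of 1208 alternatives for single genes, 13 changed direction. C4b was -0.10 with RLE factors, -0.09 with DESeq2 and -0.31 to 0.93 with single libraries left out. Rac1 was 0.10 with library size alone, 0.08 in the compared libraries and -0.23 to 0.30 with single libraries left out, or 0.10 without aged library 3. Car9 ran from -6.64 to 1.45 and Timd4 from -2.02 to 0.20. Of 286 alternatives for list medians, 9 moved, among them lipid uptake (-0.25 to 0.57), immediate-early genes (0.54 without HFD library 3) and matrix genes (-0.04 without it). Genes near 0 CPM are limited by counting and by loss from single libraries.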
